A study of Homo sapiens with 12 samples.

Results

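The genes described here act in excision, mismatch and translesion repair of DNA. They are 43 named genes of nucleotide excision repair, base excision repair, mismatch repair, direct reversal and translesion synthesis. Each was measured through the array's probe sets (groups of short probes for a transcript) that the platform annotation assigns to exactly that symbol. Of the 43 genes, 40 had such a probe set and 39 were tested, out of 10729 genes tested on the array. GTF2H2, NEIL1 and PMS2 had only probe sets annotated with several symbols, and the single probe set of NEIL2 did not pass the filter on low values.

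The cells were HK-2, an immortalized line of human renal proximal tubular epithelium grown in monolayer. Cells given Ota at the high dose for 24 h or for 72 h were set against vehicle-treated control cells of the same time, with 3 arrays in each of the 4 groups. The compound is named here as in the labels, which give no amount. The arrays are labelled as biological replicates of a single cell line, with nothing on whether they came from separate cultures, so the p-values measure the spread between these arrays.

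Nucleotide excision repair removes bulky lesions: damage is recognised across the genome or at stalled RNA polymerase, TFIIH opens the helix, XPA and its partners verify the lesion, and the nucleases ERCC1-ERCC4 and ERCC5 cut the strand on either side. Base excision repair starts with a DNA glycosylase that removes a damaged base, after which APEX1 cuts the backbone and a polymerase, XRCC1 and a ligase fill and seal the gap. Mismatch repair corrects replication errors, MGMT takes alkyl groups directly off guanine, and translesion polymerases copy past lesions that remain. Proximal tubule cells take up many filtered and circulating toxicants, some of which damage DNA.

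Upstream sequences are shown for XPA, APEX1 and NEIL3, which were far below control with Ota at 24 h, and for ERCC4, which was above it at both times. Each is the 250 bases before the RefSeq gene start (GRCh38.p14), written 5′ to 3′ on the gene's strand, as chr9:97697341-97697590 (minus strand) for XPA, chr14:20454976-20455225 (plus strand) for APEX1, chr4:177309624-177309873 (plus strand) for NEIL3 and chr16:13919904-13920153 (plus strand) for ERCC4. Capitals mark matches on either strand to 5 motifs, searched as these letters. The GC box was GGGCGG. The CCAAT box was the letters of its name. The E-box was CACGTG. The E2F site was TTTGGCG. The TATA box was TATAAA.
XPA: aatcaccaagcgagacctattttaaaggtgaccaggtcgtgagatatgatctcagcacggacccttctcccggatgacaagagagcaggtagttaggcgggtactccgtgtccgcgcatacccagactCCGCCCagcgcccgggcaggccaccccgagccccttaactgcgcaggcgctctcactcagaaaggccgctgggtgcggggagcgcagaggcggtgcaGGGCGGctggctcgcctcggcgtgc
APEX1: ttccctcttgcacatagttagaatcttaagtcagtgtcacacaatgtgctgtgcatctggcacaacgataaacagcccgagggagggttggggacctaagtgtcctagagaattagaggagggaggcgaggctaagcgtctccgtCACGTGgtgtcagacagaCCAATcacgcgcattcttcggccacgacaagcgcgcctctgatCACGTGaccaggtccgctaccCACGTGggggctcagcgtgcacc
NEIL3: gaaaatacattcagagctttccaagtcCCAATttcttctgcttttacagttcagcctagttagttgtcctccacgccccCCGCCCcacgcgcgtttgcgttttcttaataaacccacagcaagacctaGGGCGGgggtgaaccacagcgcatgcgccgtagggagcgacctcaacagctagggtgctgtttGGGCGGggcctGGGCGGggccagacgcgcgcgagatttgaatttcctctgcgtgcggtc
ERCC4: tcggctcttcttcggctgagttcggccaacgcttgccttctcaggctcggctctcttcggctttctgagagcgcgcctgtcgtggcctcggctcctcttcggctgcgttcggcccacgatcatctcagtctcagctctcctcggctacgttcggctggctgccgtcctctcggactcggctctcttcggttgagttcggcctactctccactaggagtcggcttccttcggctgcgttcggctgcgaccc
The XPA window held 2 GC boxes, the APEX1 window 3 E-boxes and 1 CCAAT box, the NEIL3 window 4 GC boxes and 1 CCAAT box, and the ERCC4 window none of the 5 motifs. None of the matches overlapped another motif. Among 35116 RefSeq windows of the same length, 42.6% held a GC box, 32% a CCAAT box, 6.34% an E-box, 1.59% an E2F site and 10.7% a TATA box. Some genes have several windows. Of the 40 members matched by symbol, 33 held a GC box in any of their windows, 18 a CCAAT box, 9 an E-box, 1 an E2F site and 1 a TATA box. Counted the same way over all 27305 genes, the shares were 46.2%, 37%, 7.73%, 1.95% and 13%. A match is a run of letters and not a shown binding site, and binding was not measured here.

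Values are log2 expression values as deposited, so a log2 fold change of -1 is a halving. The median value of the tested genes was 7.22 to 7.53 on the Ota arrays and 7.91 to 8.01 on the control arrays at 24 h, and 7.65 to 7.75 on the Ota arrays and 7.95 to 7.99 on the control arrays at 72 h. The mean of the 24 poly-A spike-in probe sets, which report RNA added in fixed amounts by the array protocol, exceeded that of the control arrays by 1.85 at 24 h and 0.889 at 72 h in the Ota groups. The mean of 3 probe sets for 18S ribosomal RNA was higher by 1.58 and 1.34. For each of these measures the Ota and control arrays did not overlap, and the exact two-sided permutation p was 0.1, the smallest that 3 arrays against 3 allow. The 3′ minus 5′ difference of ACTB, a sign of RNA integrity, differed by 0.579 at 72 h (exact permutation p = 0.1) and by 0.046 at 24 h (exact permutation p = 0.9). GAPDH, read the same way, differed by only 0.031 after 24 h and 0.033 after 72 h, with overlapping arrays. Its exact permutation tests gave p = 0.3 for the earlier time and 0.7 for the later one. The array medians, spike-ins and 18S probe sets thus moved with Ota at both times, the ACTB difference only at 72 h and that of GAPDH at neither. The part of these measures in the members' differences was not tested. In bulk RNA, fewer cells and less RNA per cell cannot be told apart. Correlations between arrays of a group were 0.954 to 0.994. Of 14 proximal tubule markers only PAX8 and SLC4A4 were tested, and both fell at both times. Their mean per array was 8.40 to 8.91 with Ota and 10.88 to 11.02 in control cells at 24 h, and 7.80 to 9.23 with Ota and 10.88 to 11.01 in control cells at 72 h. The proximal tubule markers LRP2, CUBN and AQP1 did not pass the filter. All 6 epithelial markers were tested: KRT7 rose (0.99) and KRT18 and KRT19 fell (-1.45 and -2.42) at 24 h, and KRT7, KRT19 and CDH1 fell (-1.52, -1.31 and -3.18) at 72 h. Tested markers of other cells were 0 of 8 leukocyte, 1 of 8 endothelial (ESAM, -1.74 at 72 h), 1 of 6 collecting duct and distal tubule (AQP3, 1.09 and 2.02), 3 of 6 fibroblast and 3 of 6 podocyte. LUM rose at both times (0.69 and 1.55), COL1A1 fell at 24 h (-1.94) and PTPRO rose at 72 h (0.65), and the other 3 of these 6 were called at neither time. The mean of the 3 fibroblast markers per array was 9.02 to 9.59 with Ota and 9.35 to 9.65 in control cells at 24 h, and 8.55 to 9.11 with Ota and 7.84 to 8.12 in control cells at 72 h. The part of these markers in the members' differences was not tested.

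At 24 h, the repair genes fell more often than they rose: 20 of the 39 were lower with Ota, 6 were higher and 13 did not pass the test (limma, Benjamini-Hochberg adjusted p under 0.05 over all genes tested). The share called, 66.7%, lay near the 61.3% of all tested genes, of which 20.8% rose and 40.5% fell. The median log2 fold change was -0.64 over the members and -0.24 over all genes, a difference of -0.40. That difference was -0.26 without Ota 24 h replicate 3, -0.61 with the mean over each gene's probe sets and -0.67 with no filter. The Ota and control arrays did not overlap for 26 members (66.7%, against 65.7% of all genes). Called differences of at least 1 on the log2 scale numbered 16 (41%, against 37.7%), 15 of them downward.

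At 72 h, 17 members fell, 8 rose and 14 did not pass the test. The share called was 64.1%, beside 60.1% of all genes (24.8% rose and 35.2% fell). The median log2 fold change was -0.34 over the members and -0.11 over all genes, a difference of -0.22. It was -0.10 without Ota 72 h replicate 2, -0.062 without control 72 h replicate 2, -0.12 with the filter at 6, -0.11 with array weights and -0.37 without _x_at and _s_at probe sets. Non-overlapping arrays were found for 30 members (76.9%, against 73.7% of all genes), and 15 called differences reached 1 on the log2 scale (38.5%, against 37.2%). These counts depend on how the arrays are scaled. With each array centred on its median, 12 members rose and 15 fell at 24 h, beside 43.4% and 26.7% of all genes; at 72 h 12 members rose and 17 fell, beside 35.5% and 27.8% of all genes. With arrays scaled to the spike-ins, 0 members rose and 38 fell at 24 h, and 1 rose and 27 fell at 72 h; of all genes, 1.42% rose and 93.5% fell at 24 h, and 5.17% rose and 62.6% fell at 72 h.

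**Figure D1:**
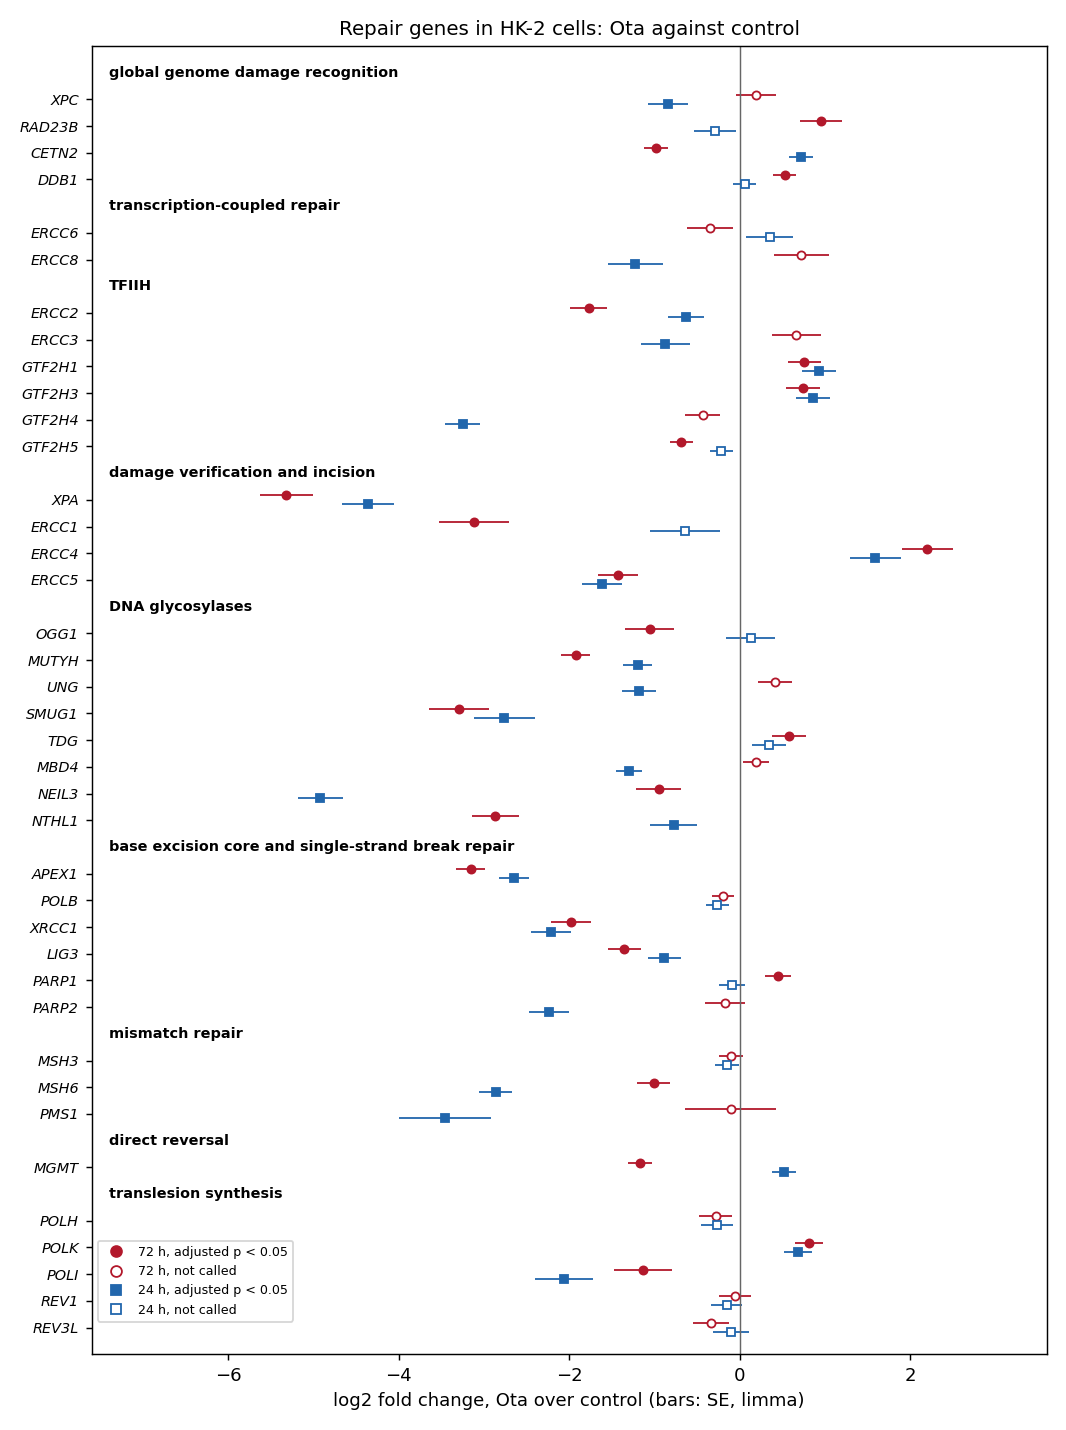
Log2 fold change of each of the 39 tested repair genes, Ota minus control, at 24 h and at 72 h, ordered by role; points are limma estimates and bars their standard errors, filled where the adjusted p was under 0.05. At 24 h 20 members were called lower and 6 higher (of all genes, 40.5% and 20.8%), and the 6 higher ones turn negative under scaling to the spike-ins.

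Across both times, 12 members fell at each time (30.8%, against 21.6% of all genes), 4 rose at each time (10.3%, against 11%) and 6 passed the test at neither (15.4%, against 17.3%). The 12 were ERCC2, XPA, ERCC5, MUTYH, SMUG1, NEIL3, NTHL1, APEX1, XRCC1, LIG3, MSH6 and POLI, and the 4 were GTF2H1, GTF2H3, ERCC4 and POLK. A further 8 passed only at 24 h, all downward (20.5%, against 15.2%), and 7 passed only at 72 h. Of these 7, RAD23B, DDB1, TDG and PARP1 rose (10.3%, against 10.2% of all genes) and ERCC1, OGG1 and GTF2H5 fell (7.69%, against 11.2%). CETN2 and MGMT rose at 24 h and fell at 72 h (5.13%, against 2.43%).

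Among the nucleotide excision members, 4 of 16 rose and 7 fell at 24 h, and 5 rose and 6 fell at 72 h. The shares at 24 h were 25% and 43.8%, near the 20.8% and 40.5% of all genes. At 72 h they were 31.2% and 37.5%, near 24.8% and 35.2%. These shares of all genes also apply to the counts by role below. XPA, the scaffold that verifies the lesion, measured 3.12, 3.10 and 4.17 with Ota at 24 h, against 7.87, 7.50 and 8.09 in control cells. At 72 h XPA measured 4.05, 3.39 and 3.09 with Ota, against 8.72, 8.82 and 8.94 in control cells. Every Ota array lay more than 3 log2 units under every control array. The mean of the Ota arrays lay under the filter level of 4 at both times, and only 2 of the 6 Ota arrays were over it, so XPA passed the filter through its 6 control arrays and had to be lower with Ota. The size of the fall of a member whose Ota arrays are near the background depends on that background, and it is not ranked against others. The log2 fold change of XPA was -4.35 ± 0.31 (SE) at 24 h (limma adjusted p = 3.4e-07) and -5.32 ± 0.31 at 72 h (limma adjusted p = 1.01e-07).

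ERCC1, the non-catalytic partner in the ERCC1-ERCC4 nuclease, measured 7.93, 8.94 and 6.98 with Ota at 24 h, against 8.54, 8.83 and 8.40 in control cells. At 72 h it measured 4.78, 5.87 and 5.62 with Ota, against 8.52, 8.48 and 8.61 in control cells. The groups overlapped at 24 h and were wide apart at 72 h, with log2 fold changes of -0.64 ± 0.41 (limma adjusted p = 0.192) and -3.11 ± 0.41 (limma adjusted p = 4.37e-05). ERCC4, which carries the catalytic site of the same nuclease (XPF), measured 6.75, 5.63 and 6.80 with Ota at 24 h, against 4.81, 4.59 and 5.01 in control cells. At 72 h ERCC4 measured 7.55, 6.82 and 7.13 with Ota, against 5.05, 4.69 and 5.16 in control cells. All Ota arrays were above all control arrays at both times, so the partners differed in direction at 72 h. The log2 fold change of ERCC4 was 1.59 ± 0.30 at 24 h (limma adjusted p = 0.000644; -0.26 when scaled to the spike-ins) and 2.20 ± 0.30 at 72 h (limma adjusted p = 5.65e-05). ERCC5 (XPG), the other incision nuclease, measured 7.62, 6.74 and 7.63 with Ota at 24 h, against 8.99, 8.72 and 9.13 in control cells, a fold change of -1.62 ± 0.23 on the log2 scale. It measured 7.98, 7.81 and 7.79 with Ota at 72 h, against 9.10, 9.55 and 9.21 in control cells, and fell by 1.43 there, without overlap at either time (limma adjusted p = 9.14e-05 and 0.000236).

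**Figure D2:**
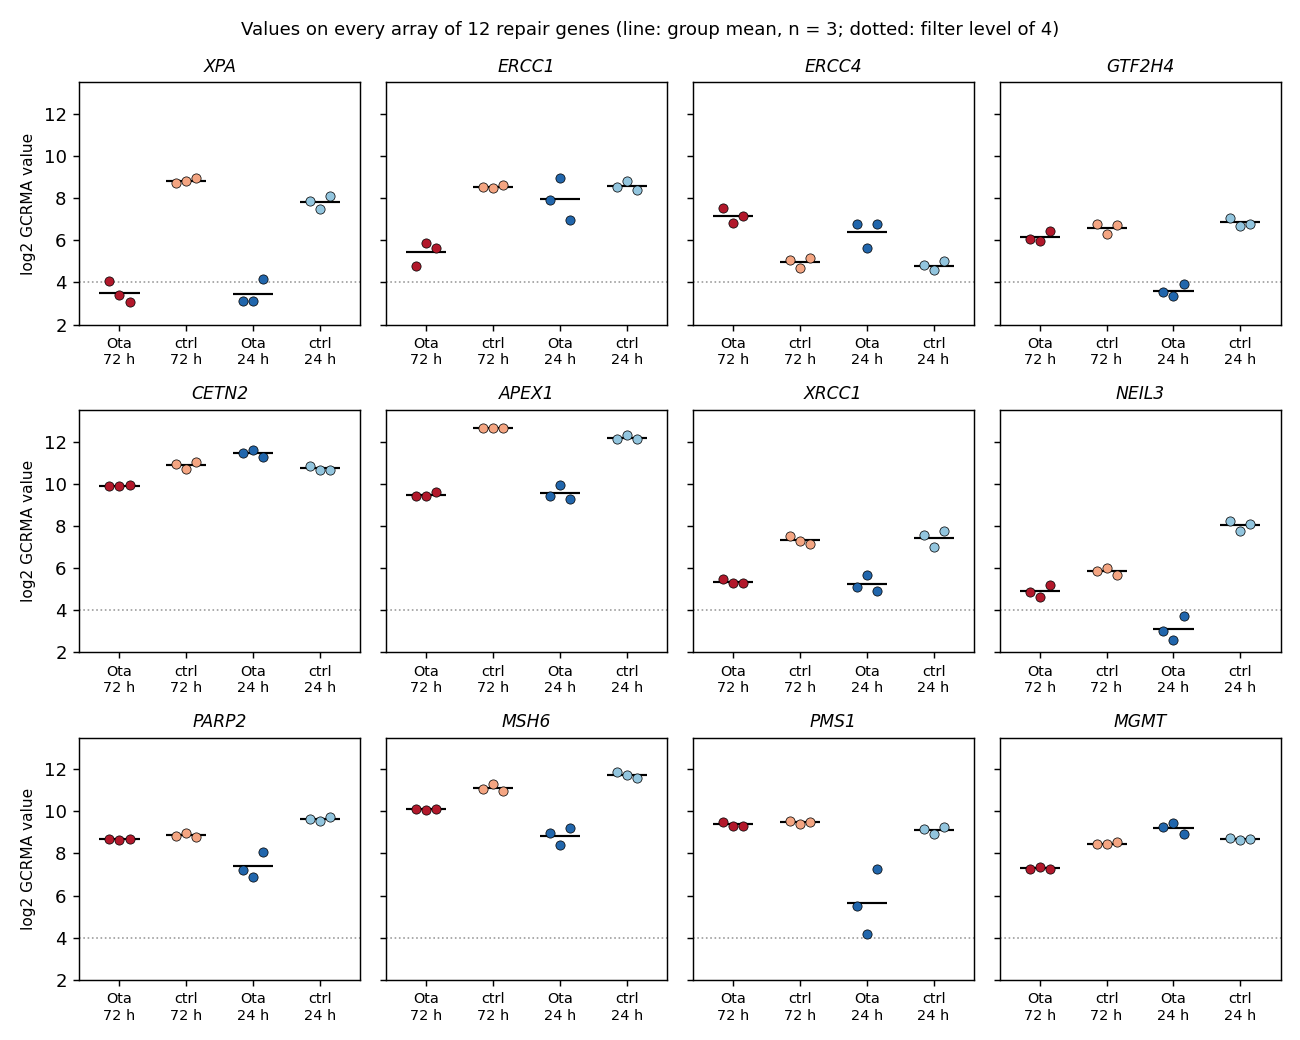
Log2 expression value on every array for 12 repair genes, with Ota left of control at each time and short lines at the group means (n = 3 arrays) and a dotted line at the filter level of 4. XPA, APEX1 and XRCC1 lie below control at both times and ERCC4 above it, while PMS1, PARP2 and GTF2H4 lie far below control at 24 h and near it at 72 h.

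The 6 tested TFIIH members moved apart, with 2 risen and 3 fallen at 24 h and 2 risen and 2 fallen at 72 h. GTF2H4, the p52 core subunit that holds ERCC3 in the complex, measured 3.54, 3.35 and 3.92 with Ota at 24 h, against 7.06, 6.70 and 6.78 in control cells. At 72 h it measured 6.05, 5.96 and 6.46 with Ota, against 6.75, 6.29 and 6.72 in control cells. The 24 h Ota arrays were all under the filter level of 4, whereas the 72 h groups overlapped. The log2 fold change was -3.25 ± 0.20 at 24 h (limma adjusted p = 1.42e-07) and -0.43 ± 0.20 at 72 h (limma adjusted p = 0.0849). ERCC2 (XPD), the helicase that opens and checks the damaged strand, measured 6.15, 6.44 and 5.72 with Ota at 24 h, against 7.10, 6.77 and 6.33 in control cells. At 72 h ERCC2 measured 4.51, 4.34 and 4.25 with Ota, against 6.13, 6.16 and 6.12 in control cells. Its groups overlapped at 24 h and not at 72 h, with log2 fold changes of -0.63 ± 0.21 (limma adjusted p = 0.0233) and -1.77 ± 0.21 (limma adjusted p = 2.37e-05). ERCC3 (XPB), the translocase of the complex, had log2 fold changes of -0.87 ± 0.28 at 24 h (limma adjusted p = 0.0193) and 0.67 ± 0.28 at 72 h (limma adjusted p = 0.0612). The core subunits GTF2H1 and GTF2H3 were higher at 24 h by 0.93 and 0.87 and at 72 h by 0.76 and 0.74 (limma adjusted p = 0.00157, 0.00267, 0.00561 and 0.00703), with no overlap of groups. When scaled to the spike-ins these 4 values were -0.92, -0.98, -0.13 and -0.15. Without _x_at and _s_at probe sets the 24 h call for GTF2H3 was lost (0.50, limma adjusted p = 0.14). GTF2H5, the smallest core subunit, measured -0.21 ± 0.14 at 24 h and fell by 0.68 at 72 h (limma adjusted p = 0.000964) through the probe set tested. With the mean over its probe sets, some of which passed the filter only through Ota arrays, the 72 h value was 0.82. The call for ERCC2 at 24 h was lost without Ota replicate 3 (-0.44, limma adjusted p = 0.0886) or control replicate 1 or 2 (-0.45 and -0.61, adjusted p = 0.107 and 0.0581), and that for ERCC3 without Ota replicate 2 or control replicate 3 (-0.50 and -0.78, adjusted p = 0.0521 and 0.0664). Centring each array ended the 24 h calls of ERCC2 (-0.068) and ERCC3 (-0.31).

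Of the 4 genes that recognise damage across the genome, XPC fell and CETN2 rose at 24 h, while RAD23B and DDB1 rose and CETN2 fell at 72 h. XPC, which senses the distorted helix, measured 6.65, 6.49 and 7.21 with Ota at 24 h, against 7.69, 7.55 and 7.62 in control cells, and at 72 h 7.03, 7.78 and 7.05 with Ota, against 7.07, 7.30 and 6.90 in control cells. The groups were apart at 24 h and overlapped at 72 h, with log2 fold changes of -0.84 ± 0.23 (limma adjusted p = 0.00837; -0.28 and no longer called after centring) and 0.19 ± 0.23 (limma adjusted p = 0.498). CETN2, the centrin that stabilises XPC and also serves centrosomes, measured 11.48, 11.60 and 11.26 with Ota at 24 h, against 10.85, 10.67 and 10.66 in control cells, and at 72 h 9.89, 9.87 and 9.92 with Ota, against 10.93, 10.68 and 11.01 in control cells. Its arrays were all above control at 24 h and all below at 72 h, with log2 fold changes of 0.72 ± 0.14 (limma adjusted p = 0.00095; -1.13 when scaled to the spike-ins) and -0.98 ± 0.14 (limma adjusted p = 9.55e-05). RAD23B, the other XPC partner, was higher by 0.96 ± 0.25 at 72 h and DDB1, the adaptor of the damage-sensing ubiquitin ligase, by 0.53 ± 0.13 (limma adjusted p = 0.00529 and 0.0044). Scaled to the spike-ins these were 0.071 and -0.36, with neither called.

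In transcription-coupled repair, ERCC8 (CSA), part of a ubiquitin ligase at stalled RNA polymerase, measured 6.17, 5.03 and 6.72 with Ota at 24 h, against 7.18, 7.05 and 7.35 in control cells. The groups did not overlap, and the log2 fold change was -1.22 ± 0.32 (limma adjusted p = 0.00597). At 72 h ERCC8 measured 8.41, 8.18 and 8.43 with Ota, all above the 7.76, 7.58 and 7.50 in control cells, yet the difference of 0.73 ± 0.32 did not pass the test (limma adjusted p = 0.0698). ERCC6 (CSB), the remodeller that binds the stalled polymerase, overlapped control at both times, at 0.35 ± 0.27 and -0.35 ± 0.27.

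Of the 14 tested base excision members, 10 fell and 0 rose at 24 h, and 8 fell and 2 rose at 72 h, with 4 not called at each time. The fallen shares were 71.4% and 57.1%, beside 40.5% and 35.2% of all genes. The risen shares were 0% and 14.3%, beside 20.8% and 24.8%. At 24 h, 2 rose and 8 fell when each array was centred, beside 43.4% and 26.7% of all genes. After quantile normalization 0 rose and 8 fell at 24 h, beside 28.4% and 34.7%. When scaled to the spike-ins 14 fell, beside 93.5%. APEX1, the endonuclease that cuts the abasic site left by a glycosylase, measured 9.39, 9.95 and 9.28 with Ota at 24 h, against 12.13, 12.33 and 12.10 in control cells. At 72 h APEX1 measured 9.42, 9.43 and 9.60 with Ota, against 12.64, 12.65 and 12.62 in control cells. All 12 arrays lay well above the filter level and the groups were far apart, with log2 fold changes of -2.65 ± 0.17 (limma adjusted p = 1.8e-07) and -3.15 ± 0.17 (limma adjusted p = 7.54e-08). XRCC1, the scaffold that holds the polymerase and the ligase at the gap, measured 5.10, 5.68 and 4.89 with Ota at 24 h, against 7.57, 6.98 and 7.75 in control cells. At 72 h XRCC1 measured 5.46, 5.26 and 5.26 with Ota, against 7.51, 7.27 and 7.16 in control cells. XRCC1 was lower on every Ota array, with log2 fold changes of -2.21 ± 0.23 at the earlier time and -1.98 ± 0.23 at the later one (limma adjusted p = 7.88e-06 and 1.93e-05). LIG3, the ligase bound to XRCC1, measured 5.63, 5.01 and 5.37 with Ota at 24 h, against 5.95, 6.31 and 6.39 in control cells. LIG3 measured 4.57, 4.98 and 4.71 with Ota at 72 h, against 6.07, 6.30 and 5.97 in control cells. The groups did not overlap, with log2 fold changes of -0.88 ± 0.19 (limma adjusted p = 0.00199; -0.32 and not called after centring) and -1.35 ± 0.19 (limma adjusted p = 8.84e-05).

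The break sensors moved differently over time. PARP2, which marks strand breaks with poly(ADP-ribose), measured 7.23, 6.89 and 8.04 with Ota at 24 h, against 9.63, 9.54 and 9.71 in control cells. At 72 h PARP2 measured 8.70, 8.65 and 8.70 with Ota, against 8.81, 8.99 and 8.78 in control cells, still below but by little. The log2 fold change of PARP2 was -2.24 ± 0.23 at 24 h (limma adjusted p = 7.37e-06) and -0.18 ± 0.23 at 72 h (limma adjusted p = 0.54). PARP1, the more abundant sensor, was -0.09 ± 0.15 at 24 h and rose by 0.45 ± 0.15 at 72 h (limma adjusted p = 0.022; -0.44 when scaled to the spike-ins). When 72 h arrays were left out (Ota replicate 3, or control replicate 2), the PARP1 values were 0.32 and 0.38 (limma adjusted p = 0.0864 and 0.0829). POLB, the gap-filling polymerase, did not pass the test at either time, at -0.26 ± 0.13 and -0.19 ± 0.13 (limma adjusted p = 0.107 and 0.232).

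Among the 8 tested glycosylases, 6 fell and 0 rose at 24 h, and 5 fell and 1 rose at 72 h. The fallen shares were 75% and 62.5%, beside 40.5% and 35.2% of all genes. The risen shares were 0% and 12.5%, beside 20.8% and 24.8%. NEIL3, which acts on oxidised bases and crosslinks in dividing cells, measured 3.02, 2.57 and 3.73 with Ota at 24 h, against 8.21, 7.76 and 8.11 in control cells. At 72 h NEIL3 measured 4.86, 4.61 and 5.19 with Ota, against 5.84, 6.01 and 5.65 in control cells. The gap was wide at 24 h, where the Ota arrays were under the filter level, and narrow at 72 h, where the control arrays were themselves lower. The log2 fold change was -4.92 ± 0.27 (limma adjusted p = 5.3e-08) and -0.95 ± 0.27 (limma adjusted p = 0.00879). SMUG1, a uracil glycosylase, measured 2.73, 3.25 and 3.42 with Ota at 24 h, against 6.29, 5.17 and 6.23 in control cells. SMUG1 measured 3.26, 2.16 and 3.28 with Ota at 72 h, against 5.96, 6.40 and 6.22 in control cells. Its Ota arrays were all under the filter level of 4 and its control arrays all over it, with log2 fold changes of -2.76 ± 0.35 and -3.29 ± 0.35 (limma adjusted p = 3.72e-05 and 9.67e-06). SMUG1 had 0 Ota arrays over that level, so like XPA it passed the filter through the control groups.

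NTHL1, which removes oxidised pyrimidines, measured 4.42, 4.88 and 4.31 with Ota at 24 h, against 5.44, 4.98 and 5.50 in control cells. At 72 h NTHL1 measured 2.78, 2.31 and 3.53 with Ota, against 5.84, 5.76 and 5.61 in control cells. The groups were just apart at 24 h and widely apart at 72 h, where the Ota arrays were under the filter level of 4, with log2 fold changes of -0.77 ± 0.28 (limma adjusted p = 0.0299, and 0.0514 with the replicate number as a block) and -2.86 ± 0.28 (limma adjusted p = 4.22e-06). The 24 h call was also lost after centring (-0.21) and without Ota replicate 1 or 3 or control replicate 1 or 3, where values were -0.72, -0.66, -0.71 and -0.68 (limma adjusted p = 0.0824, 0.0865, 0.0872 and 0.0955). MUTYH, which removes adenine paired with oxidised guanine, measured 6.25, 6.42 and 6.15 with Ota at 24 h, against 7.35, 7.28 and 7.78 in control cells. MUTYH measured 6.01, 6.00 and 6.29 with Ota at 72 h, against 7.81, 8.11 and 8.15 in control cells. Every Ota array was lower than every control array, with log2 fold changes of -1.20 ± 0.17 and -1.92 ± 0.17 (limma adjusted p = 8.92e-05 and 2.28e-06).

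OGG1, which removes oxidised guanine itself, overlapped control at 24 h (0.13 ± 0.29) and was lower at 72 h (-1.06 ± 0.29, limma adjusted p = 0.00731). UNG, the main nuclear and mitochondrial uracil glycosylase, and MBD4, a glycosylase for thymine and uracil paired with guanine, were lower at 24 h and not at 72 h. UNG had log2 fold changes of -1.18 ± 0.20 and 0.42 ± 0.20 (limma adjusted p = 0.00032 and 0.0908), and MBD4 of -1.30 ± 0.15 and 0.19 ± 0.15 (limma adjusted p = 1.77e-05 and 0.299). TDG, which shares the thymine mismatch substrate, measured 0.34 ± 0.20 at 24 h and was higher by 0.58 ± 0.20 at 72 h (limma adjusted p = 0.0248; -0.31 when scaled to the spike-ins). That call was lost without Ota replicate 1 or 3 or control replicate 2 or 3 of 72 h, at 0.53, 0.53, 0.56 and 0.55 (limma adjusted p = 0.076, 0.0697, 0.0677 and 0.0692).

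Of the 3 tested mismatch repair genes, 2 fell at 24 h and 1 at 72 h. MSH6, which recognises base mismatches, measured 8.98, 8.38 and 9.18 with Ota at 24 h, against 11.84, 11.70 and 11.58 in control cells. At 72 h MSH6 measured 10.12, 10.04 and 10.11 with Ota, against 11.05, 11.27 and 10.96 in control cells. The groups were apart at both times and closer at 72 h, with log2 fold changes of -2.86 ± 0.19 (limma adjusted p = 2.27e-07) and -1.01 ± 0.19 (limma adjusted p = 0.000718). PMS1, a MutL homologue of mismatch repair, measured 5.51, 4.18 and 7.24 with Ota at 24 h, against 9.14, 8.92 and 9.24 in control cells. PMS1 measured 9.51, 9.32 and 9.30 with Ota at 72 h, against 9.52, 9.41 and 9.51 in control cells. The 24 h Ota arrays were widely spread yet all below control, and the 72 h groups overlapped, with log2 fold changes of -3.46 ± 0.54 (limma adjusted p = 0.000159) and -0.10 ± 0.54 (limma adjusted p = 0.883). MSH3, which recognises insertion and deletion loops, measured -0.15 ± 0.14 and -0.10 ± 0.14, called at neither time.

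MGMT, the direct reversal enzyme, measured 9.23, 9.45 and 8.91 with Ota at 24 h, against 8.74, 8.62 and 8.67 in control cells. At 72 h MGMT measured 7.27, 7.35 and 7.28 with Ota, against 8.42, 8.46 and 8.52 in control cells. Its arrays were all above control at 24 h and all below at 72 h. The log2 fold changes were 0.52 ± 0.15 (limma adjusted p = 0.00826; -1.33 when scaled to the spike-ins) and -1.17 ± 0.15 (limma adjusted p = 2.9e-05).

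Of the 5 translesion polymerase genes, 1 rose and 1 fell at each time through the probe set tested. POLH was not called through that probe set, but its 3 other probe sets past the filter were called lower at both times, as given below. POLI, a Y-family polymerase, measured 4.43, 2.84 and 3.89 with Ota at 24 h, against 5.57, 5.57 and 6.21 in control cells. POLI measured 5.67, 5.09 and 5.17 with Ota at 72 h, against 6.32, 6.57 and 6.42 in control cells. The groups did not overlap, and the 24 h Ota mean lay under the filter level, with log2 fold changes of -2.06 ± 0.34 and -1.13 ± 0.34 (limma adjusted p = 0.000255 and 0.013). POLK, the family member that copies past bulky guanine adducts, was higher by 0.69 ± 0.16 at 24 h and 0.81 ± 0.16 at 72 h (limma adjusted p = 0.003 and 0.000951), without overlap, and stood at -1.17 and -0.076 when scaled to the spike-ins. REV1, which recruits the other bypass polymerases, and REV3L, the catalytic subunit of polymerase zeta, were called at neither time, at -0.15 ± 0.19 and -0.10 ± 0.21 at 24 h and -0.06 ± 0.19 and -0.34 ± 0.21 at 72 h.

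The effect of Ota differed between 72 h and 24 h for 18 members (46.2%, against 49.5% of all genes), by the limma test of the 72 h effect minus the 24 h effect. It was higher at 72 h for 11 members and lower for 7, beside 29.6% and 19.9% of all genes. The 8 members that passed only at 24 h (XPC, ERCC8, ERCC3, GTF2H4, UNG, MBD4, PARP2 and PMS1) were all among the 11, with NEIL3, MSH6 and RAD23B. Among them were 3.97 ± 0.38 for NEIL3, 3.35 ± 0.76 for PMS1 and 2.81 ± 0.29 for GTF2H4 (limma adjusted p = 1.68e-05, 0.00357 and 2.64e-05), where the 24 h Ota means of NEIL3 and GTF2H4 lay under the filter level. The 7 were ERCC1, NTHL1, CETN2, MGMT, OGG1, ERCC2 and MUTYH. ERCC1 was at -2.47 ± 0.58 and NTHL1 at -2.09 ± 0.39 (limma adjusted p = 0.00434 and 0.00116), where the 72 h Ota mean of NTHL1 lay under the filter level. The difference for NEIL3 stood beside a fall in the control cells themselves, described next. For XPA, APEX1, XRCC1, ERCC4 and ERCC5 the difference between times did not pass the test, at -0.96 ± 0.43, -0.51 ± 0.24, 0.23 ± 0.33, 0.61 ± 0.42 and 0.19 ± 0.33. The calls for XPC, OGG1 and MUTYH depended on single arrays: XPC was lost without Ota 24 h replicate 1 or control 72 h replicate 3 (0.97 and 0.94, limma adjusted p = 0.0505 and 0.0561), OGG1 without any of 9 of the 12 arrays (all but Ota 24 h replicates 1 and 3 and Ota 72 h replicate 2) and MUTYH without any of 6 (Ota 72 h replicates 1 and 2, control 24 h replicates 1 and 2 and control 72 h replicates 2 and 3). Their values then were -0.97 to -1.20 for OGG1 and -0.63 to -0.68 for MUTYH, with limma adjusted p of at most 0.0764 and 0.0671. Centring (0.75) and quantile normalization (0.75) also ended the call for XPC (limma adjusted p = 0.0618 and 0.0639), and the mean over probe sets ended those for ERCC2 (-0.51, limma adjusted p = 0.213) and OGG1 (-0.52, limma adjusted p = 0.153).

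**Figure D3:**
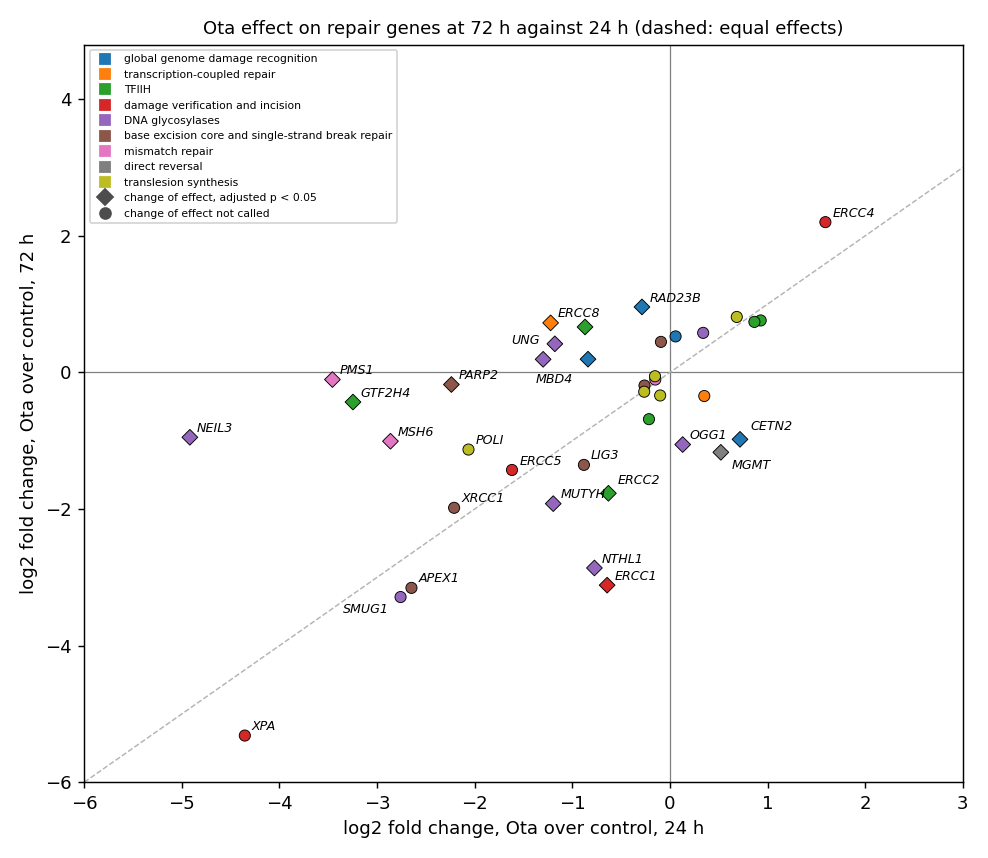
Log2 fold change with Ota at 72 h (vertical) against that at 24 h (horizontal) for the 39 tested repair genes, one point per gene and coloured by role, with the diagonal of equal effects and diamonds where the difference passed the test. The 11 members with a higher effect at 72 h lie above the diagonal, among them NEIL3 (3.97), PMS1 (3.35) and GTF2H4 (2.81). ERCC1 and NTHL1 are among those below it. Distances for NEIL3, GTF2H4 and NTHL1 depend on Ota values under the filter level.

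In control cells alone, 3 members were higher and 6 lower at 72 h than at 24 h (23.1% called, against 25.5% of all genes, of which 12.2% rose and 13.3% fell). The arrays of the 2 times did not overlap for 22 members (56.4%, against 53.5%). NEIL3 was lower by the most, with 5.84, 6.01 and 5.65 at 72 h against 8.21, 7.76 and 8.11 at 24 h, a log2 fold change of -2.19 ± 0.27 (limma adjusted p = 0.000131). UNG, PARP2, GTF2H5, PARP1 and MSH6 were also lower, at -1.03, -0.76, -0.74, -0.63 and -0.61. GTF2H5 was not called with the mean over probe sets (-0.062, limma adjusted p = 0.835), its other probe sets standing at 0.54, 0.02 and -0.07. GTF2H1, XPA and MUTYH were higher, at 1.10, 1.01 and 0.55 (limma adjusted p = 0.00185, 0.0317 and 0.0342). Leaving out a control array ended the call for XPA (each but 24 h replicate 3, 0.85 to 1.06), MUTYH (replicates 1 and 2 of 24 h, 2 and 3 of 72 h, 0.46 to 0.51), PARP2 (each, -0.72 to -0.83) and MSH6 (each but 72 h replicate 2, and Ota 72 h replicate 1, -0.55 to -0.68), with limma adjusted p up to 0.116, 0.122, 0.0989 and 0.121.

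Other probe sets of the same genes were compared in sign. Of the 26 members called at 24 h, 11 had another probe set past the filter, in 10 of them all with the same sign and in 0 with a called opposite; at 72 h these counts were 13 of 25, 10 and 2. Among members not called at 24 h, all 3 other probe sets of GTF2H5 were called opposite to it (1.29 to 2.87), as was the other of OGG1, and ERCC1, RAD23B, REV1 and REV3L had other probe sets of the opposite sign that were not called. MBD4 had 4 probe sets at -1.30 to -2.84 at 24 h, PARP2 3 at -2.23 to -2.31 and MSH6 2 at -2.86 and -3.58. POLI was the exception at 24 h, where its second probe set measured 0.18 ± 0.12. That probe set had 0 arrays over the filter level in either 24 h group (means 3.46 with Ota and 3.27 in control cells). It passed the filter through the 3 control arrays of 72 h, so its same sign at 72 h (-1.20) was set by the filter. For ERCC1 a second probe set fell as the tested one at 72 h (-3.55 ± 0.54), and another measured 0.37 ± 0.21. The opposite calls at 72 h were in RAD23B and GTF2H5. RAD23B had 1 probe set at -0.40 beside another at 1.34, and the 3 others of GTF2H5 were higher by 0.98 to 1.79. Those of GTF2H5 at 0.98 and 1.21 (1.52 and 1.29 at 24 h) had 0 control arrays over the filter level. They passed through Ota arrays alone, so their direction was set by the filter. The one at 1.79 (2.87 at 24 h) also had control arrays over that level. The directions of both genes thus rest on the probe set tested. POLH, the polymerase that copies past ultraviolet lesions, was not called through its brightest probe set (-0.26 ± 0.19 at 24 h and -0.28 ± 0.19 at 72 h). Its 3 other probe sets were all called lower, at -2.35, -3.38 and -3.23 at 24 h and -1.28, -1.06 and -1.95 at 72 h. Likewise MSH3 had a second probe set at -1.04 and -0.72, and OGG1 one at -1.94 and -1.79, both called at each time. LIG3 had 4 of its 5 probe sets called lower at both times and 1, at -0.48 and -0.41, called at neither. Of those 4, the probe set at -1.32 at 72 h passed the filter only through the 3 control arrays of 24 h. Its fall at 24 h was thus set by the filter, and its 72 h means were under that level (2.35 with Ota and 3.67 in control cells). The other probe set of SMUG1, counted above as of the same sign at both times, had 0 Ota arrays over the filter level. It passed through control arrays alone, so its direction was also set by the filter.

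**Figure D4:**
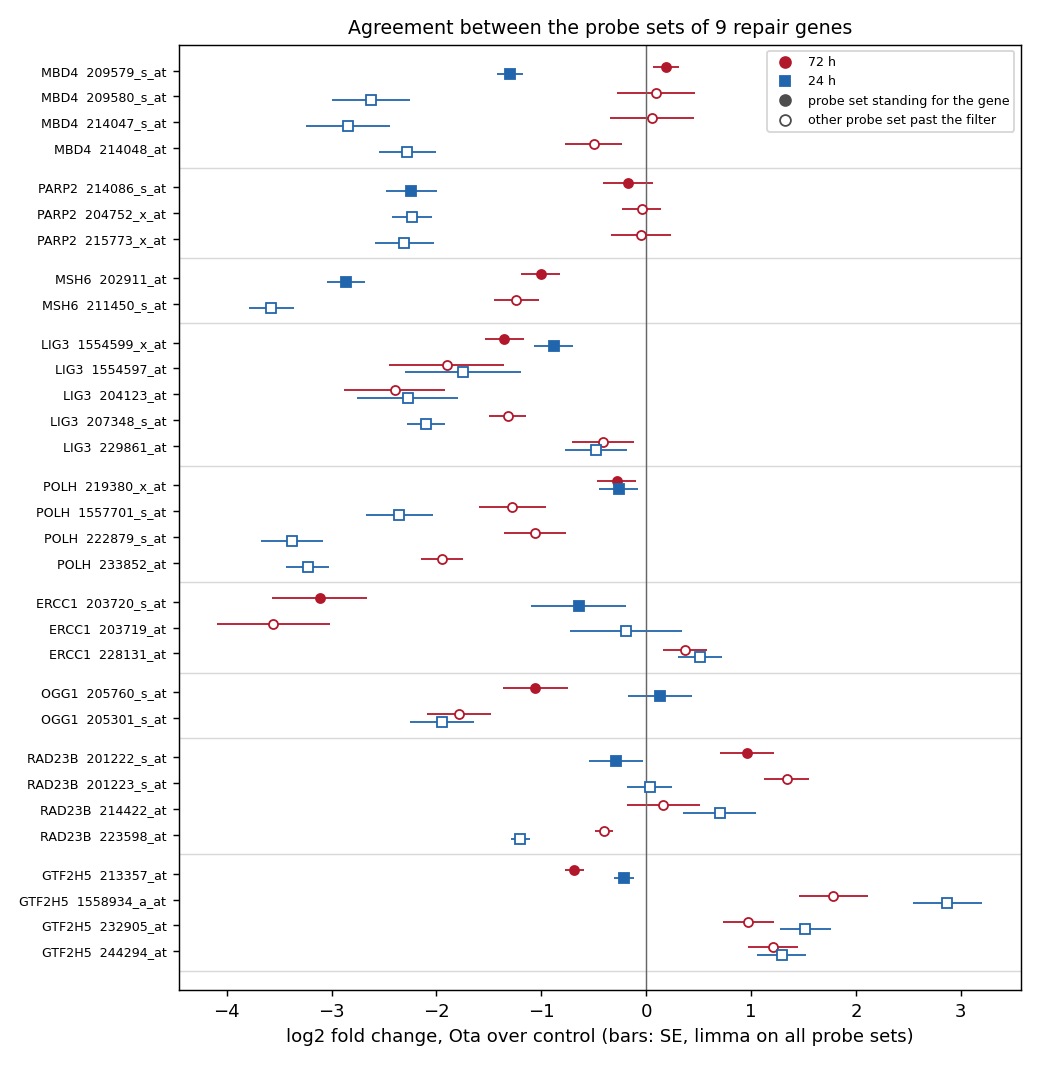
Log2 fold change with Ota of every probe set past the filter, at 24 h and 72 h, for 9 repair genes with more than 1, the tested probe set marked. The probe sets of MBD4, PARP2 and MSH6 are all below 0 at 24 h, while those of GTF2H5 and RAD23B lie on either side of it and the tested one of POLH lies apart from its others.

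Among 39 further genes of the same pathways, 36 were tested. At 24 h 5 rose and 22 fell (75%, against 61.3% of all genes), and at 72 h 8 rose and 10 fell (50%, against 60.1%). With each array centred, 10 rose and 17 fell at 24 h, beside 43.4% and 26.7% of all genes. At 72 h 11 rose and 8 fell when centred, beside 35.5% and 27.8%. Scaled to the spike-ins, 1 rose and 34 fell at 24 h, beside 1.42% and 93.5%. At 72 h 2 rose and 21 fell in that scaling, beside 5.17% and 62.6%. The list was drawn up with earlier results of these data known. All 7 tested genes of base excision and break repair outside the members fell at 24 h, among them TDP1 and APTX, which clean blocked DNA ends, at -2.04 and -1.90. At 72 h 2 of them fell and 2 rose, with the alkyl-base glycosylase MPG at -3.45 and the flap nuclease FEN1 at 1.25. All 4 of mismatch repair and direct reversal fell at 24 h, including MLH3 at -3.70, the nuclease EXO1 at -2.97 and the demethylase ALKBH2 at -3.42. MLH3 and ALKBH2 also fell at 72 h (-2.98 and -1.97). Of 13 further nucleotide excision genes 1 rose and 6 fell at 24 h, and 2 rose and 5 fell at 72 h. CCNH, the cyclin of the TFIIH kinase, was at -3.53 and -2.58, and DDB2, the damage sensor that works with DDB1, at -2.74 and -1.15. Of 12 genes of the translesion switch and other bypass, 4 rose and 5 fell at 24 h, and 4 rose and 1 fell at 72 h. The bypass polymerase POLQ was at -3.78 at 24 h and 2.92 at 72 h, and RAD18, the ubiquitin ligase that starts the switch to translesion polymerases, at 0.33 and 3.42 (limma adjusted p = 0.608 and 0.000158).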

How the data were processed

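Biotin-labelled cRNA of 12 HK-2 samples was measured on Affymetrix arrays, per the labels. The deposited values are log2 expression per probe set, already background-corrected and normalized across arrays by the authors with GCRMA (version not given), per the submitters' processing notes. A change in total RNA per cell cannot be read from such values, and those near the background are uncertain. No depth applies; the 3 arrays per group limit the precision.

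The 54675 probe sets had 1 symbol for 41097, several for 1801 and none for 11777 in the platform annotation, which can be old. For each gene, 1 probe set was used: of those annotated with its symbol alone that exceeded 4 on 3 or more of the 12 arrays, the brightest on average. Group means were fitted with limma 3.58.1 in R 4.3.3 (lmFit, eBayes, 8 residual and 3.561 prior degrees of freedom). Benjamini-Hochberg adjustment ran over 10729 genes with a threshold of 0.05. Contrasts were Ota minus control at each time, the difference of those effects, and control cells at 72 h minus 24 h. The 2 times' effects and their difference use the same control arrays as the last contrast. Array-wide measures had exact permutation tests over 10 splits. Values on every array were given for called members past 1 on the log2 scale whose groups did not overlap, up to 10 per direction and time, and for others in turn. The procedure was tested on simulated data. The members and lists were chosen with earlier results of these data known. Replicate numbers are shared between groups. Deviations of same-numbered arrays correlated at 0.125, 0.231 and 0.271 at 24 h and at -0.052, 0.139 and 0.192 at 72 h. Those of different-numbered arrays correlated at -0.245 to 0.017 at 24 h and at -0.201 to 0.084 at 72 h. The main fit did not treat same-numbered arrays as pairs. An alternative setting took the replicate number as a block at both times. Alternatives were 14 settings and leaving out each array.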

Additional observations from a re-analysis of the deposited data

Results flagged for a closer look

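The effect of Ota differed between 72 h and 24 h in 18 members (46.2%, against 49.5% of all genes). The test was the limma test of the difference itself (Benjamini-Hochberg adjusted p under 0.05 over all genes). The 72 h effect minus the 24 h effect was positive on the log2 scale for NEIL3 (3.97), PMS1 (3.35), GTF2H4 (2.81), PARP2 (2.06), ERCC8 (1.95), MSH6 (1.86), UNG (1.60), ERCC3 (1.54), MBD4 (1.49), RAD23B (1.25) and XPC (1.03). It was negative for ERCC1 (-2.47), NTHL1 (-2.09), CETN2 (-1.70), MGMT (-1.69), OGG1 (-1.19), ERCC2 (-1.14) and MUTYH (-0.73). The calls for XPC, OGG1 and MUTYH were lost when certain single arrays were left out. The 24 h Ota means of NEIL3 and GTF2H4 and the 72 h Ota mean of NTHL1 lay under the filter level. CETN2 and MGMT were called in opposite directions at the 2 times, higher with Ota at 24 h and lower at 72 h. All groups had 3 arrays, which is too few for a check of single arrays that stand apart.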

How the results depend on the processing

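With each array centred on its median, 12 members rose at 24 h, against 6 in the values as deposited. Of all genes, 43.4% rose when centred and 20.8% as deposited. Scaled to the poly-A spike-ins, 0 rose and 38 fell at 24 h, beside 1.42% and 93.5% of all genes. In that scaling 1 rose and 27 fell at 72 h, beside 5.17% and 62.6%. The difference between times was positive for 23 and negative for 1 (of all genes, 55.1% and 4.88%). Over time in control cells 1 rose and 2 fell (5.37% and 6.56%). That scaling gave opposite signs at 24 h for CETN2 (-1.13), GTF2H1 (-0.92), GTF2H3 (-0.98), ERCC4 (-0.26), MGMT (-1.33) and POLK (-1.17), at 72 h for DDB1 (-0.36), GTF2H1 (-0.13), GTF2H3 (-0.15), TDG (-0.31), PARP1 (-0.44) and POLK (-0.076), and for the difference between times of MUTYH (0.24). The median log2 fold change of all genes was -0.24 at 24 h as deposited, 0.32 when centred and -2.09 when scaled to the spike-ins.

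Without probe sets shared between transcripts (_x_at and _s_at) RAD23B was at -0.40 at 72 h, and with the mean over probe sets GTF2H5 was at 0.82. That mean takes in the GTF2H5 probe sets that passed the filter only through Ota arrays. A log2 fold change of at least 1 left 1 riser at 24 h (8.7% of all genes), 1 at 72 h (13%) and 2 fallers over time in control cells (5.82%). Array weights, whose estimate stopped before convergence, gave 12 negative differences between times (30.7% of all genes) and 8 risers over time in control cells (24.2%). Those risers numbered 8 when only the arrays compared were fitted (19.6%), 1 with all probe sets fitted (9.21%) and 1 at an adjusted p under 0.01 (6.7%). The replicate block ended only the call for NTHL1 at 24 h (-0.77, limma adjusted p = 0.0514).

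Leaving out 1 array at a time gave 6 to 7 risers and 18 to 20 fallers at 24 h, 6 to 11 risers and 17 to 18 fallers at 72 h, 10 to 13 positive and 5 to 9 negative differences between times, and 1 to 5 risers and 4 to 7 fallers over time in control cells. Of all genes, 17.4% to 22.2% rose and 36.8% to 41.3% fell at 24 h, and 21.3% to 28% rose and 31.7% to 38.3% fell at 72 h. Differences between times were positive for 25.6% to 33.7% and negative for 17.3% to 21.2%. Over time in control cells 8.43% to 16.5% rose and 9.26% to 16.9% fell. The cause of these shifts was not tested.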
